A study of Mus musculus with 37 samples.

Results

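The genes of the proteasome were followed across 4 groups of mice that differed in calorie intake and in access to a running wheel. A gene was counted where the array platform gave a probe set exactly 1 gene symbol and that symbol began with Psma, Psmb, Psmc, Psmd, Psme or Psmg followed by a digit. This took in 81 probe sets of 47 genes, out of 12393 genes on the array, and each gene was represented by its brightest probe set, judged by the mean of the 37 arrays. A filter on dim genes left 45 of the 47 among 9294 genes tested. The genes left out were Psma8, an alpha subunit known from testis, with signals of 8.2 to 94.8, and Psmc3ip, with signals of 23.8 to 246.7. Psmc3ip and the tested Psme3ip1 match by symbol, but they encode partner proteins and are no proteasome subunits. Psme2, a subunit of the PA28 activator, was not analysed here, because its probe set names more than 1 gene.

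All animals were female C57BL/6 mice, 9 weeks old at the start of a study of 6 weeks. Food was ad libitum for 10 mice without a wheel (AL) and 9 with a wheel (AL+EX), and 30% calorie restriction was applied to 9 mice without (CR) and 9 with a wheel (CR+EX). Restricted animals were given 70% of the calories of AL mice, with other nutrients at the AL level. RNA was taken from whole thoracic glands, the left and right gland of an animal being pooled, and each animal had 1 Affymetrix array. Markers of fat cells, luminal and basal epithelium and blood vessels were all present, and so were markers of skeletal muscle: the mean of 7 muscle genes had a median of 14.2 to 14.5 on the log2 scale in the 4 groups. These are therefore signals of a mixed tissue, in which fewer cells of a type and less RNA per cell cannot be told apart.

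The proteasome is the barrel-shaped protease that degrades ubiquitin-tagged proteins in the cytosol and nucleus. Its 20S core stacks rings of alpha subunits, which gate the entry, on rings of beta subunits, of which Psmb5, Psmb6 and Psmb7 cut proteins; the 19S cap recognises the ubiquitin chain, unfolds the substrate with a ring of ATPases and feeds it into the core. In lymphocytes, and in other cells exposed to interferon-gamma, the cutting subunits are replaced by Psmb8, Psmb9 and Psmb10, which form the immunoproteasome that prepares peptides for MHC class I molecules. The genes of the standard subunits are known to be induced together when proteasome activity is low, through the transcription factor Nfe2l1, which binds antioxidant response elements.

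Stretches of promoters are shown because they carry the letters by which the standard and the immune genes are known to be regulated, and for the genes on which the results turn. They come from RefSeq (GRCm38.p6), where 39 of the 47 genes had a window, and 250 bases before the start of each were searched on both strands. Psmb5, the gene of the chymotrypsin-like standard subunit, holds an antioxidant response element (TGACNNNGC, in capitals) 47 bases before its start, at chr14:54618014-54618062 on the minus strand. Psmb6, the gene of the caspase-like standard subunit, holds one 9 bases before its start, at chr11:70525328-70525356 on the plus strand. Psmb8 holds a gamma-activated site (TTCNNNGAA, in capitals) at chr17:34198078-34198126 on the plus strand. Psmg1, a core assembly chaperone, holds the same letters at chr16:95991175-95991210 on the minus strand. Psmc2, an ATPase of the 19S cap, holds a CCAAT box at chr5:21785227-21785271 on the plus strand.
Psmb5: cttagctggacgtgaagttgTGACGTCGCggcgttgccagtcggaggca
Psmb6: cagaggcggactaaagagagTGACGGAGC
Psmb8: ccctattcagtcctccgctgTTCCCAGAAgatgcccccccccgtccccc
Psmg1: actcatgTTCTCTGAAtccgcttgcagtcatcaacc
Psmc2: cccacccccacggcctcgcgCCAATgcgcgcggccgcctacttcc

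The share of proteasome genes with a motif is given beside that of all windows of the same length. The antioxidant response element was found in 5 of the 39 windows (Psmb5, Psmb6, Psmc6, Psmd9 and Psmd12), against 10.2% of all 32851 windows. The gamma-activated site was found in 2 of 39 (Psmb8 and Psmg1), against 7.02%. An interferon-stimulated response element (GAAA repeated after any 2 bases) was found in 3 of 39, none of them an immunoproteasome gene, against 2.98%, and CCAAT in 15 of 39, against 33.8%. The matches shown overlap no other searched motif, and a match is no measured binding site.

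Psmb9 shares its upstream region with Tap1, which encodes part of the transporter that carries peptides to MHC class I. The genes start on opposite strands of chromosome 17, and 225 bases lie between their starts, at chr17:34187331-34187555. The interval is shown whole, 5′ to 3′ on the minus strand (towards Psmb9), because these neighbours have different calls under restriction below. It is 61.3% G and C, and the only match to a searched motif is a CCAAT box read on the opposite strand, in capitals.
Psmb9-Tap1: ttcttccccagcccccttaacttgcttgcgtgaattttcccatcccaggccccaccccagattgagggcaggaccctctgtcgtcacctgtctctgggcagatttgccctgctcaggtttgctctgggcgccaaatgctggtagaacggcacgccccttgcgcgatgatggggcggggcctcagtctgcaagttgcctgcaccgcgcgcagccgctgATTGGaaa

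Values are Affymetrix signals, and differences are log2 differences of signal + 16 with the standard error of the fit (±). A gene was called at an adjusted p under 0.05 in limma, with Benjamini-Hochberg adjustment over all 9294 genes. The authors' scaling had put the trimmed mean of every array at 500.165 to 500.23, and correlations between arrays ran from 0.828 to 0.985. B lymphocyte genes split the arrays: in 22 their mean lay between 6.35 and 6.96 on the log2 scale, and in 15, called rich in B lymphocyte genes here, between 7.93 and 10.2 (4 AL, 4 AL+EX, 4 CR and 3 CR+EX). In 5 arrays (3 AL and 2 CR+EX) the ratio of the 3′ to the 5′ Gapdh control signal, a sign of RNA quality, was above 2. Animal numbers fall into 4 runs of 8, 11, 10 and 8 arrays, each with animals of all 4 groups, and what a run was is not stated in the labels.

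Most proteasome genes differed little from mouse to mouse. The residual SD of the 45 tested genes had a median of 0.256 on the log2 scale, against 0.339 for all genes and 0.283 for genes in the middle of the same range of mean signal. The steadiest was Psmb4, a non-cutting beta subunit, with a residual SD of 0.134 and signals between 2351.7 and 3807.2. The 3 immunoproteasome genes were the most variable of the 45, at 0.585 for Psmb8, 0.556 for Psmb9 and 0.530 for Psmb10, while the other 42 lay between 0.134 and 0.432.

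Calorie restriction, averaged over mice with and without a wheel (18 against 19 animals), moved 3 of 45 proteasome genes past the threshold: Psmb5 and Psmg1 were higher and Psmc2 was lower. That is 6.67% of the members, where 8.75% of all genes tested were called (4.19% higher and 4.56% lower). The median difference of the members was -0.02, the same as the median of all genes, also -0.02. At an unadjusted p under 0.05 there were 8 of 45 members (17.8%), against 23.9% of all genes. Of the marker lists, 2 of 8 fat cell genes and 1 of 9 macrophage genes were called for restriction and 0 of the lymphocyte, epithelial, muscle or vessel genes, and their part in the members' differences was not tested.

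Of the 42 genes outside the immunoproteasome, 24 had a difference within 0.1 of 0 on the log2 scale, which is a fold of 1.07. The 95% intervals of these 42 differences had half-widths of 0.107 to 0.277 (median 0.169), so that smaller shifts of a gene were not resolved with this number of arrays. There were 27 below 0 and 15 above 0, but this split followed the scaling: 19 were below and 23 above after median centring, and 25 below and 17 above after quantile normalization. The median of all genes moved from -0.02 to 0.03 and 0.01 under these scalings.

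**Figure D1:**
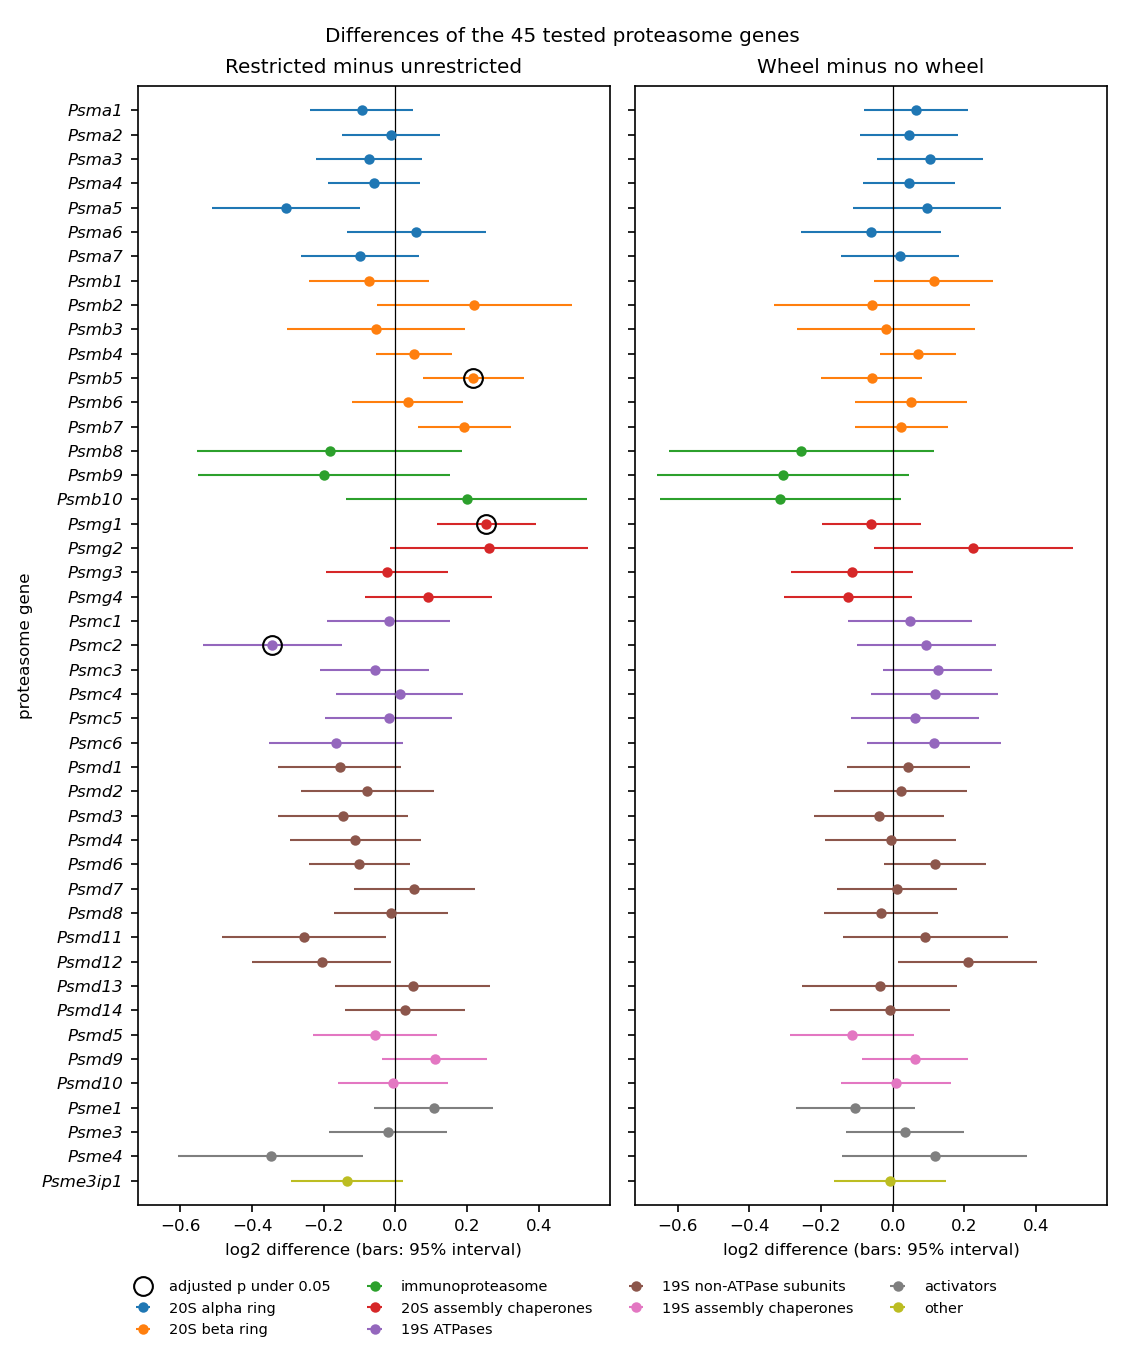
Log2 difference of each of the 45 tested proteasome genes, ordered and coloured by role, for restriction (left) and wheel (right). Points are estimates, bars are 95% intervals and rings mark an adjusted p under 0.05; 3 genes are ringed for restriction and 0 for the wheel, and the longest bars in green belong to Psmb8, Psmb9 and Psmb10.

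Among the 7 standard beta subunits, 5 lay above 0 and 1 was called. Psmb5 signals ran from 2221.6 over a median of 2875.55 to 3203.7 in AL and from 2002.0 over 2691.1 to 3070.0 in AL+EX mice. They ran from 2475.1 over 3369.9 to 3823.0 in CR and from 2353.7 over 3064.5 to 3966.3 in CR+EX mice. The groups overlapped, and 14 of 18 restricted mice lay above the median of the unrestricted ones. The difference was 0.22 ± 0.07 (1.16-fold, adjusted p = 0.0430). The call was lost without the 15 arrays rich in B lymphocyte genes (0.28, adjusted p = 0.0644), without the 5 arrays of high Gapdh ratio (0.22, adjusted p = 0.0799), under median centring (0.27, adjusted p = 0.0532) or quantile normalization (0.17, adjusted p = 0.0959), and in 20 of 37 fits that left out 1 array (adjusted p from 0.0210 to 0.0747 over the 37). It was also lost with no filter on dim genes (adjusted p = 0.0523) and with the B lymphocyte mean as a covariate (0.21, adjusted p = 0.0514).

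Psmb7, the gene of the trypsin-like standard subunit, came close to the threshold. Its signals ran from 5263.1 over a median of 7476.8 to 8688.0 in AL and from 6981.9 over 7588.1 to 9486.0 in AL+EX mice. Restricted signals ran, in CR mice, from 7713.4 over 8932.3 to 9869.4, and in CR+EX mice from 7135.3 over 8555.7 to 10293.1. The restricted medians were the higher ones, with overlap, and the difference was 0.19 ± 0.06 (adjusted p = 0.0530). Psmb6, the remaining cutting subunit, had medians of 2243.35 in AL, 2182.8 in AL+EX, 2296.3 in CR and 2378.2 in CR+EX mice within overlapping ranges of 1671.1 to 3299.9. Its difference was 0.03 ± 0.08 (adjusted p = 0.840, 95% interval -0.12 to 0.19), so it had no measurable shift. The other beta subunits had differences of -0.07 (Psmb1), 0.22 (Psmb2), -0.05 (Psmb3) and 0.05 (Psmb4), none of them called.

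The chaperones that build the 20S core included the member with the smallest p. Psmg1, which with Psmg2 scaffolds the alpha ring, had signals from 649.4 over a median of 762.1 to 873.4 in AL and from 429.3 over 766.7 to 878.0 in AL+EX mice. In CR mice they ran from 729.9 over 887.2 to 1066.1, and in CR+EX mice from 786.5 over 872.4 to 1009.7. The groups overlapped, and 17 of 18 restricted mice lay above the unrestricted median. Psmg1 was 0.25 ± 0.07 higher (1.19-fold, adjusted p = 0.0155). It lost its call without the 15 arrays rich in B lymphocyte genes (0.21, adjusted p = 0.0734) and kept it in all 37 fits without 1 array. Its partner Psmg2 had a difference of the same size with a wider error, 0.26 ± 0.14 (adjusted p = 0.243), and Psmg3 and Psmg4 had -0.02 ± 0.08 and 0.09 ± 0.09.

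Of the 6 ATPases of the 19S cap, 5 lay below 0 and Psmc2 was called lower. Psmc2 signals ran from 2134.2 over a median of 2885.45 to 3734.5 in AL and from 1975.1 over 2684.4 to 4958.6 in AL+EX mice. Restricted signals ran, in CR mice, from 1692.4 over 2246.6 to 2600.7, and in CR+EX mice from 1850.3 over 2426.8 to 2754.2. All 18 restricted mice lay below the unrestricted median, with overlapping ranges. Psmc2 fell by 0.34 ± 0.10 (1.27-fold, adjusted p = 0.0194), and the highest values were in AL+EX mice. The call was lost without the arrays rich in B lymphocyte genes (-0.33, adjusted p = 0.111), without those of high Gapdh ratio (-0.31, adjusted p = 0.0540) and under median centring (-0.29, adjusted p = 0.135). A further probe set of Psmc2 had -0.15 ± 0.10, and the mean of both gave -0.25 (adjusted p = 0.0706). The other 5 ATPases lay between -0.17 (Psmc6) and 0.01 (Psmc4).

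**Figure D2:**
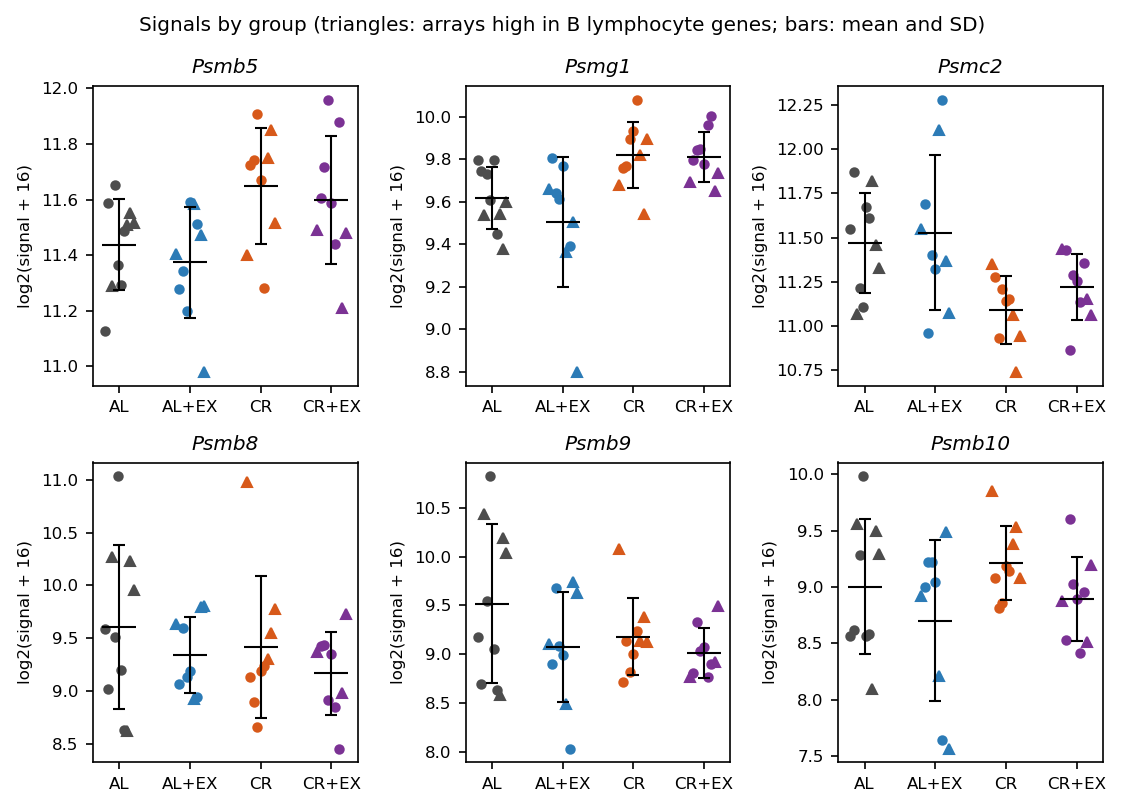
Log2(signal + 16) of 6 proteasome genes in every array by group, with the mean and SD of each group; triangles are the 15 arrays rich in B lymphocyte genes. The restricted groups sit higher for Psmb5 and Psmg1 and lower for Psmc2, with overlap, and the immunoproteasome genes of the lower row spread most in AL mice for Psmb8 and Psmb9.

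In the alpha ring 6 of 7 genes lay below 0 and 0 were called. Psma5 stood apart from the rest in size, with signals from 1380.3 over a median of 1590.4 to 1973.6 in AL and from 1334.1 over 1593.7 to 2098.7 in AL+EX mice. In CR mice they ran from 707.0 over 1235.3 to 1680.4, and in CR+EX mice from 912.1 over 1369.3 to 2114.7. The lowest values were restricted mice, but the groups overlapped and the difference of -0.31 ± 0.10 missed the threshold (adjusted p = 0.0527). A further probe set of Psma5 gave -0.27 ± 0.08. The other 6 alpha subunits lay between -0.10 (Psma7) and 0.06 (Psma6).

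Among the 11 non-ATPase subunits of the 19S cap 8 lay below 0, with a median of -0.10, and 0 were called. The furthest were the lid subunits Psmd11, at -0.26 ± 0.11 (adjusted p = 0.154), and Psmd12, at -0.21 ± 0.10 (adjusted p = 0.174). Psmd14, the deubiquitinase of the cap, had 0.03 ± 0.08, and Psmd4, a ubiquitin receptor, -0.11 ± 0.09. The chaperones of cap assembly lay at -0.06 (Psmd5), 0.11 (Psmd9) and -0.01 (Psmd10), none of them called.

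The activators are caps that open the core without ubiquitin recognition, and 0 of 3 were called. Psme4, which encodes the PA200 cap, had medians of 1883.4 in AL, 2183.1 in AL+EX, 1618.0 in CR and 1601.0 in CR+EX mice. The restricted medians were lower, within ranges that overlapped, and the difference was -0.35 ± 0.13 (adjusted p = 0.0779). All 3 of its probe sets gave -0.32 to -0.37. Psme1, a subunit of the interferon-responsive PA28 cap, had 0.11 ± 0.08 (adjusted p = 0.466), and Psme3, which forms the nuclear PA28 cap, -0.02 ± 0.08 (adjusted p = 0.916). Psme3ip1, which binds Psme3, had -0.13 ± 0.08 (adjusted p = 0.295).

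With the run of animal numbers as a block, 8 of the 45 genes were called for restriction, against 18.8% of all genes. Psmb5, Psmb7 and Psmg1 were higher, and Psma5, Psmc2, Psmd11, Psmd12 and Psme4 were lower, so 17.8% of the members passed and stayed near the background. Of all genes 8.63% were higher and 10.1% lower with the block. All of the 3 genes called without the block were among them. Psmc2 then had -0.36 ± 0.07 (adjusted p = 0.000579), Psma5 -0.30 ± 0.09 (adjusted p = 0.0141) and Psme4 -0.35 ± 0.11 (adjusted p = 0.0197). Each lower gene had its furthest restriction difference in run 3. It was -0.86 for Psmd11 and Psme4, -0.76 for Psmc2, -0.57 for Psma5 and -0.56 for Psmd12. In run 2 Psma5, Psmd12 and Psme4 lay above 0, and in run 4 Psmd11 did. Of the higher genes, Psmb7 had 0.18, 0.21, 0.45 and -0.13 in runs 1 to 4. AL+EX replicates 6 and 7, both of run 3, had the highest mean log2 values of the 42 genes outside the immunoproteasome (10.91 and 10.89). No fit left out both.

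Within the runs, the called genes kept their direction with 1 exception. The restriction difference of Psmb5 was 0.21, 0.38, 0.12 and 0.13 in runs 1 to 4, and that of Psmc2 was -0.29, -0.08, -0.76 and -0.33. That of Psmg1 was -0.02, 0.18, 0.48 and 0.38, so that run 1 showed no rise. Psmb5 and Psmg2 lay above 0 and Psma7 and Psmc2 below 0 in all 4 runs. These 4 genes are 8.89% of the members, whereas 27.5% of all genes had the same sign in every run.

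The immunoproteasome genes did not pass the threshold for restriction, and their error was wide. Psmb8, which takes the place of Psmb5, had signals from 378.6 over a median of 733.05 to 2081.5 in AL and from 470.3 over 568.2 to 876.5 in AL+EX mice. Restricted signals ran, in CR mice, from 387.6 over 588.0 to 1999.7, and in CR+EX mice from 334.3 over 635.8 to 833.6. The highest values were single mice of the groups without a wheel, and the groups overlapped throughout. The restriction difference was -0.18 ± 0.18 (95% interval -0.55 to 0.19, adjusted p = 0.593).

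Psmb9, which takes the place of Psmb6, had signals from 367.8 over a median of 648.15 to 1793.7 in AL and from 246.5 over 525.8 to 837.6 in AL+EX mice. In CR mice they ran from 404.8 over 547.0 to 1064.5, and in CR+EX mice from 420.8 over 469.3 to 704.4. The AL group held the highest values and the CR+EX group had the narrowest range. The restriction difference was -0.20 ± 0.17 (95% interval -0.55 to 0.15, adjusted p = 0.531).

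Psmb10, which takes the place of Psmb7, had signals from 257.4 over a median of 492.6 to 996.8 in AL and from 173.4 over 497.6 to 700.2 in AL+EX mice. Restricted signals ran, in CR mice, from 434.2 over 547.7 to 909.1, and in CR+EX mice from 325.9 over 460.3 to 759.8. The 4 groups overlapped, with the lowest values in AL+EX mice. The restriction difference was 0.20 ± 0.17 (95% interval -0.14 to 0.53, adjusted p = 0.508). Within runs the 3 genes took both signs: Psmb8 had 0.40, -0.78, 0.07 and -0.43, Psmb9 had 0.12, -0.69, 0.47 and -0.67, and Psmb10 had 0.31, -0.38, 0.79 and 0.12.

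The wheel, averaged over both diets (18 against 19 animals), moved 0 of 45 proteasome genes past the threshold in limma, as it did 0 of all 9294 genes (0% called). At an unadjusted p under 0.05 there was 1 member, 2.22% against 2.86% of all genes. That gene was Psmd12, with medians of 1613.1 in AL, 1974.6 in AL+EX, 1537.5 in CR and 1706.3 in CR+EX mice and a difference of 0.21 ± 0.10 (adjusted p = 1). The medians with a wheel were higher within each diet, and the ranges overlapped. The 42 genes outside the immunoproteasome lay between -0.12 and 0.22, with a median of 0.04. With the run as a block limma again called 0 members and 0 of all genes, but 5 of 45 members (11.1%) had an unadjusted p under 0.05, against 6.05% of all genes. Psmd12 then had 0.23 (adjusted p = 0.773).

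All 3 immunoproteasome genes lay below 0 with a wheel, none past the threshold. The differences were -0.25 ± 0.18 for Psmb8 (95% interval -0.62 to 0.11), -0.31 ± 0.17 for Psmb9 (-0.66 to 0.04) and -0.31 ± 0.17 for Psmb10 (-0.65 to 0.02). They kept this sign in each of the 4 runs: -0.31, -0.25, -0.24 and -0.30 for Psmb8, -0.27, -0.42, -0.39 and -0.24 for Psmb9, and -0.20, -0.05, -0.52 and -0.66 for Psmb10. Psme1 and Psmd5 were also below 0 in every run, and Psma3, Psmc2, Psmc3, Psmc6, Psmd12 and Psmg2 above 0. With the run as a block the immunoproteasome genes had -0.31 (Psmb8), -0.37 (Psmb9) and -0.37 (Psmb10), 2 of the 3 at an unadjusted p under 0.05 and each at an adjusted p of 0.805. The 11 genes of 1 sign in every run are 24.4% of the members, against 14.7% of all genes with the same sign in every run.

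The wheel values of the immune genes were nearer to 0 without the 15 arrays rich in B lymphocyte genes. There the differences were -0.13 for Psmb8, -0.19 for Psmb9 and -0.11 for Psmb10, and without the 5 arrays of high Gapdh ratio they were -0.40, -0.42 and -0.41. Of the B lymphocyte list 9 of 13 genes passed the filter and 0 were called for restriction or wheel. Their mean ran from 6.68 to 10.2 in AL, 6.58 to 9.91 in AL+EX, 6.54 to 9.52 in CR and 6.35 to 9.18 in CR+EX mice. With that mean as a covariate the wheel differences were -0.22 for Psmb8, -0.27 for Psmb9 and -0.30 for Psmb10.

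**Figure D3:**
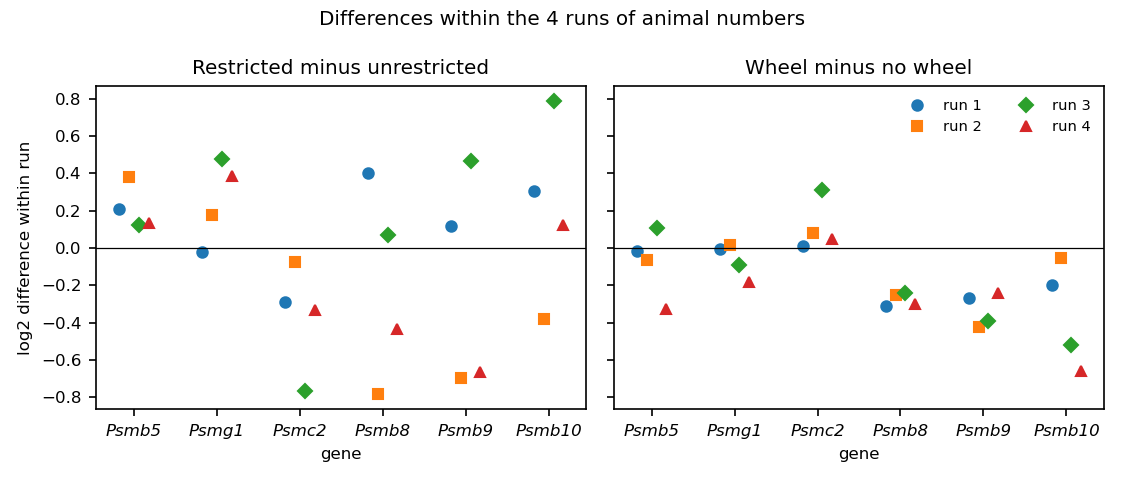
Log2 difference within each of the 4 runs of animal numbers for restriction (left) and wheel (right), with 1 point for each gene and run and no error bars. For restriction Psmb5 lies above 0 and Psmc2 below 0 in every run while the immunoproteasome genes take both signs, and for the wheel the immunoproteasome genes lie below 0 in every run.

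The diet by wheel interaction asks whether restriction acted differently with a wheel, and 0 of 45 members were called in limma, as were 0 of all genes (0% called). At an unadjusted p under 0.05 there were 3 members, 6.67% against 3.17% of all genes. Psmd7, a lid subunit that partners Psmd14, had medians of 582.25 in AL and 673.1 in AL+EX mice but 671.7 in CR and 587.2 in CR+EX mice. Each intervention alone had the higher median and both together a median near that of AL mice, within overlapping ranges of 364.0 to 950.6. The interaction was -0.49 ± 0.17 for Psmd7, -0.37 ± 0.16 for Psme3 and 0.36 ± 0.17 for Psmd5, each with an adjusted p of 1.

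The comparisons between pairs of groups called no member. For CR against AL mice 0 of 45 passed, with 0.441% of all genes called, and the smallest p belonged to Psmc2 (-0.38 ± 0.13), Psmb7 (0.25 ± 0.09) and Psma5 (-0.40 ± 0.14), with adjusted p of 0.168, 0.168 and 0.175. With the run as a block 3 were called, Psma5, Psmc2 and Psmg2, against 6.17% of all genes. For CR+EX against AL+EX mice 0 of 45 passed, with 1.65% of all genes called, and Psmg1 (0.31 ± 0.10, adjusted p = 0.0968), Psmc2 (-0.31 ± 0.14, adjusted p = 0.261) and Psmb5 (0.22 ± 0.10, adjusted p = 0.265) had the smallest p. With the run as a block Psmg1 was called, against 6% of all genes. In limma's main fits 7 and 4 members had an unadjusted p under 0.05 in these comparisons, 15.6% and 8.89% against 14.9% and 15.2% of all genes.

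For AL+EX against AL mice 0 of 45 passed, as did 0 of all genes in limma (0% called). The smallest p belonged to Psmd5 (-0.29 ± 0.12), Psmd7 (0.26 ± 0.12) and Psmg2 (0.39 ± 0.19), with adjusted p of 0.701 to 0.754. At an unadjusted p under 0.05 there were 3 members (6.67%) against 6.46% of all genes. For CR+EX against CR mice 0 of 45 passed, as did 0 of all genes (0% called), and 0 members had an unadjusted p under 0.05, against 0.893% of all genes. The differences with the smallest p there were -0.23 for Psmd7, -0.32 for Psmb10 and -0.15 for Psme3.

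For CR+EX against AL mice, both interventions together, 0 of 45 passed, with 0.624% of all genes called. The smallest p belonged to Psmg2 (0.49 ± 0.19, adjusted p = 0.243), Psmb7 (0.21 ± 0.09, adjusted p = 0.275) and Psmb9 (-0.51 ± 0.24, adjusted p = 0.360). Psmb9 had the largest absolute difference of the 45 in this comparison. At an unadjusted p under 0.05 there were 4 members, 8.89% against 13.1% of all genes. The pairwise comparisons share groups, so their values are not independent of each other.

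Across mice, the immune genes correlated with each other and mostly negatively with the other members. With group and run means taken out, the 861 pairs among the 42 genes outside the immunoproteasome had a median correlation of 0.24 over 37 arrays, and 74.8% of them lay above 0, where pairs of all genes had a median of 0.01. Psmb8, Psmb9 and Psmb10 correlated with each other at 0.55 to 0.87. Of the 126 pairs between the 3 and the 42, 77% lay below 0, with a median of -0.24. Under median centring the medians were 0.40 among the 42, 0.66 among the 3 and -0.19 between them. These pairs share arrays, scaling, tissue mixture and the split by B lymphocyte genes, and are given as a description.

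Some other members went with the immune genes. Psme1 correlated at 0.67 with Psmb8, 0.76 with Psmb9 and 0.58 with Psmb10. Psmg4, a chaperone of core assembly, correlated at 0.77 with Psmb10. The member with the highest median correlation to the other members was Psmd4, at 0.48, followed by Psmc4, also at 0.48, and Psmd1, at 0.47; Psmb2 and Psmd9 had -0.03 and -0.08.

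In the arrays rich in B lymphocyte genes, 35 of the 42 genes outside the immunoproteasome had a lower mean than in the other arrays, with a median of -0.11. Over all genes tested 45.4% were lower there, with a median of 0.03. Psmd5 (-0.30) and Psmd13 (-0.30) were furthest below, and Psmb8 (0.46) and Psmb9 (0.34) furthest above, while Psmb10 had 0.08. The ranges of the 22 and the 15 arrays overlapped for every member. All 8 arrays of run 4 were among the 15, so run and lymphocyte content cannot be fully told apart.

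Inside the 15 arrays, group and run means left in, Psmb9 was higher where the B lymphocyte mean was higher. The 2 highest B lymphocyte means there, 10.1 and 10.2, were AL mice of run 4, and 8 of the 15 arrays made up run 4. Pearson's r for Psmb9 was 0.747 (permutation p = 0.00152, adjusted 0.00912) and Spearman's rho 0.764 (adjusted permutation p = 0.00912), with r = 0.657 after leaving out the 2 arrays farthest from the median. Psmb8 had r = 0.486 (adjusted permutation p = 0.194) and rho = 0.704 (adjusted permutation p = 0.0174), with r = 0.402 without those 2 arrays. Psmb10 had r = 0.217 (adjusted permutation p = 0.873), rho = 0.400 (adjusted permutation p = 0.336) and r = 0.0938 without them.

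The relation was computed again within runs and groups, a step chosen after seeing the data. In the 8 arrays of run 4, r was 0.954 for Psmb9 (adjusted exact permutation p = 0.00119), 0.753 for Psmb8 (adjusted exact permutation p = 0.0249) and 0.25 for Psmb10 (adjusted exact permutation p = 0.588). There rho was 0.976, 0.881 and 0.524 (adjusted exact permutation p = 0.00119, 0.0145 and 0.236), all 6 tests two-sided. In run 4 the B lymphocyte mean itself differed by group. It was 10.2 and 10.1 in AL and 9.91 and 9.72 in AL+EX mice. CR mice had 9.52 and 8.92, and CR+EX mice 8.83 and 9.18. The permutations took no account of group, so group and lymphocyte content cannot be told apart within run 4. Runs 1 to 3 held 3, 1 and 3 of these arrays, too few for a value of their own. With group means taken out of the 15 arrays, r was 0.749 for Psmb9, 0.565 for Psmb8 and 0.407 for Psmb10. With run means taken out of the 14 arrays of runs that held more than 1 of them, r was 0.668, 0.503 and 0.115.

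Inside the 22 other arrays no relation passed the threshold. There r was 0.0755 for Psmb8, -0.0301 for Psmb9 and -0.0467 for Psmb10 (adjusted permutation p = 0.97 for each), and rho lay between -0.124 and -0.00847 (adjusted permutation p = 0.97 to 0.972). Without the 2 farthest arrays r was 0.177, 0.000493 and -0.0226. The B lymphocyte mean ran only from 6.35 to 6.96 in the 22 arrays, near the limit for dim genes (6.71). Over so narrow a range these tests cannot decide whether a relation is absent. The family held 6 relations and 12 tests, all two-sided.

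Single mice departed from this pattern. AL replicate 5 had the highest signal of all 37 arrays for each of the 3 genes, 2081.5 for Psmb8, 1793.7 for Psmb9 and 996.8 for Psmb10, with a B lymphocyte mean of 6.93, in the low range. AL+EX replicate 9 had the lowest Psmb10 signal of all arrays, 173.4, and the highest Psmb8 signal of its group, 876.5. In that mouse the immunoproteasome genes therefore went opposite ways.

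**Figure D4:**
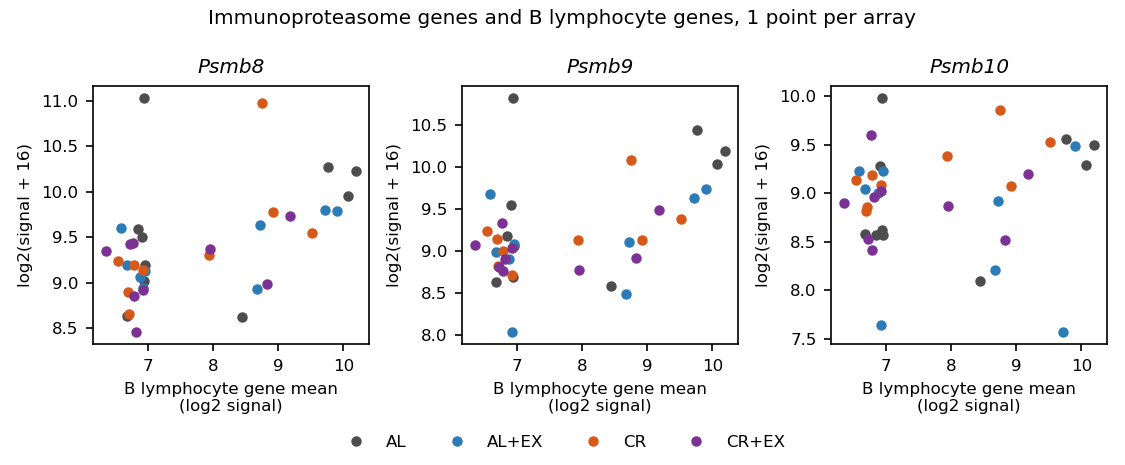
Log2(signal + 16) of Psmb8, Psmb9 and Psmb10 against the mean log2 signal of the B lymphocyte genes, 1 point per array, coloured by group. The 22 arrays at 6.35 to 6.96 form a narrow column in which no relation passed the threshold. Among the 15 arrays at 7.93 to 10.2 Psmb9 rises with the B lymphocyte mean (r = 0.747).

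Other probe sets of the same genes gave a partial check on single genes. There were 34 further probe sets, 24 of them in 17 genes above the limit for dim signals, and 15 of the 24 had the same sign for restriction as the probe set used. For Psmd11 the further probe sets lay between -0.42 and 0.08, with 3 of 4 below 0. For Psmg2 the further one had -0.14 ± 0.10 against 0.26 ± 0.14 for the one used. For Psmb3 it had 0.24 ± 0.09 against -0.05 ± 0.12, so the directions of Psmg2 and Psmb3 depended on the probe set. A further probe set also had the other sign for Psmd4 (0.12 against -0.11), Psmd9 (-0.13 against 0.11) and Psme3 (0.17 against -0.02). The same held for Psma6, Psmb4 and Psmc4. Psmb5, Psmg1, Psmb7 and the immunoproteasome genes had 1 probe set each.

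Some partners of the proteasome were lower under restriction. Of the list of partners and regulators 4 of 20 tested genes were lower and 0 higher, against 4.56% of all genes called lower. Zfand5, a zinc finger protein that binds the 26S proteasome and stimulates it, fell by 0.71 ± 0.11 (adjusted p = 0.000140) and was called under all 15 alternative settings. Ubqln2, a shuttle that brings ubiquitinated proteins to the proteasome, fell by 0.35 ± 0.11 (adjusted p = 0.0384). Akirin2, which serves the nuclear import of proteasomes, fell by 0.32 ± 0.10 (adjusted p = 0.0472), and Ecpas, an adaptor that binds the 26S proteasome, by 0.28 ± 0.08 (adjusted p = 0.0292).

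These calls differed in how firmly they held. Akirin2 was called under 7 of 15 settings and in 12 of 37 fits without 1 array, and Ubqln2 under 11 and in 21. The mean over all probe sets gave -0.12 for Akirin2 (adjusted p = 0.631) and -0.18 for Ubqln2 (adjusted p = 0.254). Ecpas was called under 12 of 15 settings and lost its call under median centring (-0.22, adjusted p = 0.184), quantile normalization (-0.23, adjusted p = 0.0641) and without the arrays rich in B lymphocyte genes (-0.33, adjusted p = 0.0582). It also lost it without AL+EX replicate 6 (-0.25, adjusted p = 0.0534). Nfe2l1, the regulator of the standard subunits, had -0.04 ± 0.10 and Pomp, the chaperone that completes the core, 0.16 ± 0.08 (adjusted p = 0.217), neither called. The median of the list was -0.04, against -0.02 for all genes.

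Of the list of ubiquitin and its activation 2 of 12 tested genes were lower and 0 higher, against 4.56% of all genes called lower. Ube3a, a ubiquitin ligase, fell by 0.52 ± 0.12 (adjusted p = 0.00679), but the mean over all of its probe sets gave -0.08 (adjusted p = 0.572), and the call was also lost without the arrays rich in B lymphocyte genes (-0.42, adjusted p = 0.0692). Ube4b, which extends ubiquitin chains, fell by 0.26 ± 0.08 (adjusted p = 0.0472). It kept its call under 7 of 15 settings and in 14 of 37 fits without 1 array. The mean over its probe sets gave -0.15 (adjusted p = 0.109).

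Of the list of MHC class I processing 1 of 12 tested genes was lower and 0 higher, near the 4.56% of all genes called lower. Tap1, the neighbour of Psmb9, fell by 0.46 ± 0.15 (adjusted p = 0.0468), with 0.15 in run 1 and -0.72, -0.72 and -0.50 in runs 2 to 4. It kept its call in 12 of 37 fits without 1 array and under 8 of 14 settings. Among others it lost the call under median centring (-0.40, adjusted p = 0.0759) and quantile normalization (-0.42, adjusted p = 0.0698). Whether the difference of Tap1 departs from that of Psmb9 (-0.20 ± 0.17) was not tested. With the wheel 0 genes of the 3 lists were called, and 10 of the 12 MHC class I processing genes lay below 0, with a median of -0.10. Of all 9294 genes 4813 lay below 0 with the wheel, with a median of -0.004. The lists were chosen with results of these arrays known, so their counts are a description.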

How the data were processed

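The deposited values are Affymetrix signal intensities of 22690 probe sets on a linear scale, made with GCOS version 1 per the submitters' processing notes; the signal algorithm is not given in the sources used here. Scaling by the authors shows in trimmed means of 500.165 to 500.23 (2% cut at each end), and none was added. Of the probe sets 20380 name 1 gene in the platform annotation, 691 several and 1555 none, 64 are controls, and 29 have an Entrez ID without a match; all 47 proteasome genes matched. Group means were fitted to log2(signal + 16) of 37 arrays in limma 3.58.1 (R 4.3.3; 33 residual degrees of freedom, empirical Bayes variances with a trend), two-sided. Genes whose mean log2 value lay below 6.71 (a signal of 88.7), the lowest 25%, were left out. Arrays carry no counts, so their number limits the precision. The limma p-values set a difference against the residual spread between arrays, 1 per animal, which in the main fit includes any difference between runs. Runs are animal numbers cut after every 24, and arrays rich in B lymphocyte genes lie above the widest gap in the mean of 9 such genes. Correlations used 100000 permutations (scipy 1.17.1). The fit was tested on simulated data with independent genes, no run differences and planted shifts larger than those of the called members. That test therefore does not bear on the calls reported here. Named genes were Psmb5 to Psmb10, Psme1, Psme3, members past the threshold or, where there were none, the 3 with the smallest p, members left out or no subunits, and called genes of related lists; the others named were chosen after their values were seen. Members and lists were chosen with earlier results of these data known.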

Additional observations from a re-analysis of the deposited data

Results flagged for a closer look

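In each group a member's highest or lowest signal was compared with the nearest other array by Dixon's criterion. Of 180 sets of a gene and a group, 10 had a stray array, and chance gives about 1 in 20. The count of 10 is thus near the chance rate. The stray values fall on 6 arrays, all of them among the 15 of 37 arrays rich in B lymphocyte genes. Stray values of the same array are not independent of each other.

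In CR replicate 8 the signals of Psma3 (2475.8), Psmc6 (1090.8) and Psmd12 (1015.3) were the lowest of their group and far from the next. In AL replicate 8, whose Gapdh ratio was 2.37, those of Psmb2 (557.5, the next being 1689.7) and Psmd9 (186.5) were the lowest. In CR replicate 1 Psmb8 (1999.7) and Psmb9 (1064.5) were the highest. Psmb4 was highest in AL+EX replicate 6 (3807.2) and Psmb7 in AL+EX replicate 8 (9486.0), while Psmg1 was lowest in AL+EX replicate 9 (429.3). The part of lymphocyte content or RNA quality in these values was not tested.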

How the results depend on the processing

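For restriction 2 members were called higher and 1 lower. The higher count was 3 with 50% of genes left out, the mean of all probe sets, the run as a block or array weights, 1 with no filter, with quantile normalization, with the B lymphocyte mean as a covariate and without the arrays of high Gapdh ratio, and 0 without those rich in B lymphocyte genes. The lower count was 2 with 50% of genes left out, 3 with the mean of all probe sets or the B lymphocyte covariate, 4 with quantile normalization, 5 with the run as a block, and 0 with median centring, without the B-rich arrays or without those of high Gapdh ratio. With the run block CR against AL called 3 and CR+EX against AL+EX called 1. Leaving out 1 array gave 1 to 3 higher, 1 to 3 lower and 0 for the wheel (37 fits). Within runs, the called genes Psmg1 in run 1 (-0.021), Tap1 in run 1 (0.15) and Akirin2 in run 4 (0.011) had the opposite sign. Named genes not called in the main fit also changed sign, such as Psmb7 in run 4 (-0.13) and Psme4 in run 2 (0.12). The causes were not tested. Of 1195 alternative values of named genes, within-run values not included, 1009 kept their side of the threshold, 152 lost and 34 gained a call. Of the 1195, 7 changed sign, 0 of them called. The 1195 include values of genes not called in the main fit, which could not lose a call. As a share of the 1195 the losses therefore understate how often a called gene lost its call. No paired analysis was possible because animal numbers are unique to each mouse. Dim members (Psma8, Psmc3ip) and shifts below the interval half-widths were beyond these arrays.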
